A study of Mus musculus with 6 samples.

Results

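The genes described here are 10 that mark lipid-associated macrophages: Trem2, Tyrobp, Spp1, Gpnmb, Apoe, Lpl, Fabp4, Fabp5, Cd36 and Cd9. They were taken by symbol from the 15487 genes of the deposited expression table. All 10 were found, and all 10 passed the filter for testing (at least 1 FPKM, a fragment count scaled by transcript length and library depth, in 3 or more of the 6 libraries). The RNA came from tumour-associated macrophages sorted by flow cytometry out of implanted tumours of CT26, a mouse colon carcinoma line, on day 15 after tumour challenge. The mice were BALB/C and the macrophages are labelled wild type. The control group, Sg-Con, had tumours whose cells carry a control guide RNA, and the Sg-C3 group had tumours whose cells carry a guide RNA against complement C3. Each group has 3 libraries. The sources used here do not give the gate of the sort, the age of the mice or whether the guide-bearing lines were clones. C3 RNA in the sorted cells does not check the guide in the tumour cells. Whether each library stands for its own mouse is not said in the labels. A p here therefore sets the difference between groups only against the spread of these libraries within a group. That spread may be technical.

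Lipid-associated macrophages are loaded with lipid and are known from fat tissue, atherosclerotic plaques and tumours. The receptor TREM2 binds lipids and lipoproteins on their surface and signals through the adaptor TYROBP (DAP12). Other products of the 10 genes carry, take up or break down lipid, or are secreted or membrane proteins found on such cells.

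The macrophages of Sg-C3 tumours held less RNA of Trem2, Spp1 and Fabp4 than those of Sg-Con tumours. Neither Tyrobp nor Apoe, the most abundant members beside Spp1, passed the test, nor did Gpnmb, Lpl, Fabp5, Cd36 or Cd9. With limma, 3 of 10 members were lower at an adjusted p below 0.05, where 31.7% of all 11198 tested genes were lower. None of the 10 was higher, where 12.7% of tested genes were, and at an unadjusted p below 0.05 the count was 1 (Cd9). In either direction 44.4% of tested genes were called. With the deposited scaling the share of members that were lower is thus close to that of all genes. The same count of 3 stood beside 17.6% of tested genes lower under median-ratio scaling and 14.1% under scaling by 4 macrophage genes. The members' median log2 fold change (Sg-C3 minus Sg-Con on log2(FPKM + 1), as in all log2 fold changes here) was -0.18, and that of all tested genes was -0.16. For 3 members the groups did not overlap, with Sg-C3 below, where 41.4% of tested genes had that pattern. The other 7 overlapped. No member had Sg-C3 wholly above, a pattern of 16.2% of tested genes, and in either direction 57.6% of tested genes did not overlap. A count of calls in bulk RNA cannot tell fewer cells of a type from less RNA per cell.

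**Figure D1:**
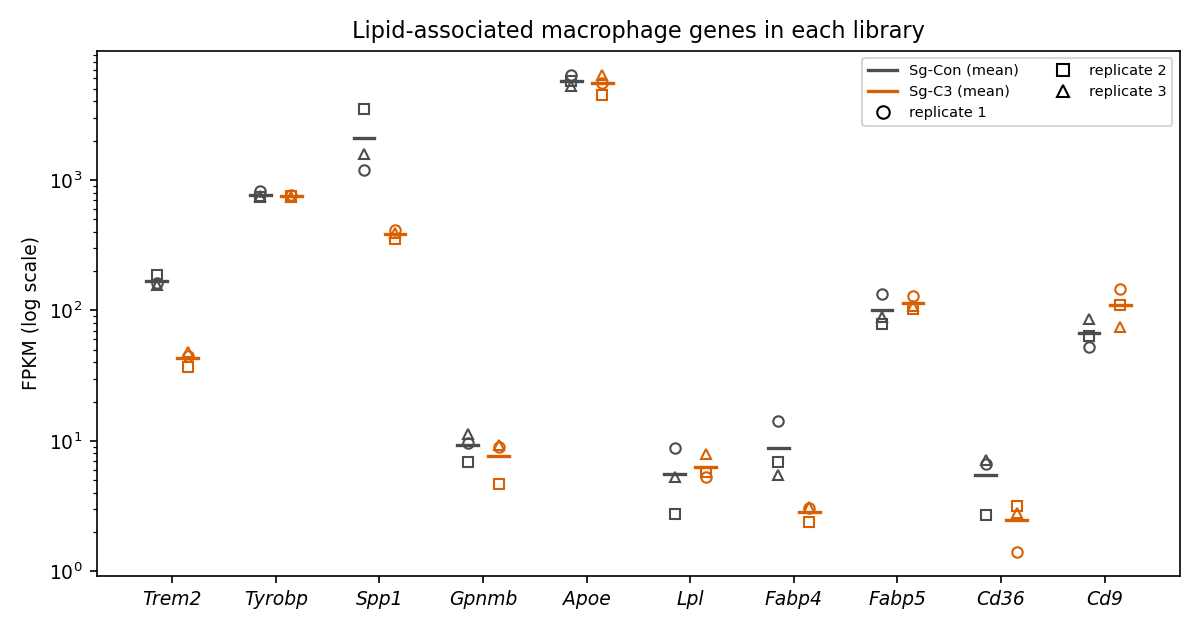
FPKM of the 10 members on a log axis, with each of the 3 Sg-Con and 3 Sg-C3 libraries as a symbol and the group mean as a line. The groups stand apart for Trem2, Spp1 and Fabp4 and overlap for the other 7 genes.

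For Trem2 and Spp1, the 2 members that fell most, RefSeq (GRCm38.p6) gives the start of the gene. The 250 bases before it are shown, 5′ to 3′ on the gene's strand. They lie at chr17:48346151-48346400 (plus strand) for Trem2 and at chr5:104434861-104435110 (plus strand) for Spp1, where it is the first of 2 RefSeq starts. Capitals mark matches to the motifs searched on either strand.
Trem2: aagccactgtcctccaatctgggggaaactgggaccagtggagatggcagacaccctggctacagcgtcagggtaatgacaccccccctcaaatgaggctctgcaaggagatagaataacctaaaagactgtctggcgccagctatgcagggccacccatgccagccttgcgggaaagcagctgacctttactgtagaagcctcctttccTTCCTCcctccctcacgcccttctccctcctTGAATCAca
Spp1: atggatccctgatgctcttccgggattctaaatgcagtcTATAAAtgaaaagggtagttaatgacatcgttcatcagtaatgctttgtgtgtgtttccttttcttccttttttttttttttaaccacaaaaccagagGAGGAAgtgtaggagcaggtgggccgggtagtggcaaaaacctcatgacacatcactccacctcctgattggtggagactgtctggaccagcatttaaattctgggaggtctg
The AP-1 motif was searched as TGANTCA, the E-box as CACGTG and the core of the M-box as CATGTG. The motif of the ETS factors was searched as GAGGAA, the interferon-linked GAS motif as TTCNNNGAA and the TATA box as TATAAA. None of the matches shown here overlap. In the Trem2 stretch TGANTCA starts at -9, counted back from the gene's start, and GAGGAA lies on the other strand at -40. In the Spp1 stretch TATAAA starts at -211 and GAGGAA at -113. Of 32851 RefSeq promoter windows of 300 bases, 7.81% hold TGANTCA, 28.3% hold GAGGAA and 13.6% hold TATAAA. The E-box occurs in 7.15%, the M-box core in 14.2% and the GAS motif in 8.30% of windows, and none of these is in either stretch. GAGGAA is the only motif found in both, and it is also the most frequent of the 6 among all windows. Of the other members, RefSeq windows were matched for Gpnmb, Apoe, Cd36 and Cd9. TGANTCA occurs at 9, after the start, in the Gpnmb window and CATGTG at -38 in that of Cd9. The Apoe windows hold GAGGAA and TATAAA, and the Cd36 window holds none of the motifs. These matches describe letters and not bound sites.

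Trem2 encodes the lipid-sensing receptor. Its level was 162, 186 and 156 FPKM in the Sg-Con libraries and 44.6, 36.6 and 48.0 FPKM in the Sg-C3 libraries. Every Sg-C3 library stood far below every Sg-Con library, and the 3 values within each group lay close together. The means were 168 ± 15.9 and 43.0 ± 5.87 FPKM (SD, n = 3 per group), a 3.90-fold lower level in Sg-C3. The log2 fold change was -1.95 (SE 0.13, 95% interval -2.24 to -1.65, limma adjusted p = 0.00078).

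Tyrobp encodes the adaptor through which TREM2 and several other receptors signal. It stood at 819, 745 and 749 FPKM in Sg-Con and at 771, 757 and 739 FPKM in Sg-C3. The groups overlapped almost fully. Means of 771 ± 41.6 and 756 ± 16.2 FPKM gave a log2 fold change of -0.03 (SE 0.08, 95% interval -0.22 to 0.17, limma adjusted p = 0.799). That sign turned with the scaling, to 0.17 under median-ratio scaling and 0.20 under scaling by 4 macrophage genes, without a call. The receptor and its adaptor therefore held different proportions in the groups. The FPKM of Trem2 was 19.8%, 25.0% and 20.9% of that of Tyrobp in the Sg-Con libraries and 5.78%, 4.83% and 6.50% in the Sg-C3 libraries. This ratio, which does not depend on the scaling of a library, did not overlap between groups and was not tested.

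Most of the other tested receptors listed here as partners of TYROBP were higher. With limma, 7 of 9 tested were higher in Sg-C3 (5 without Sg-C3 replicate 2), where 12.7% of all tested genes were. Lower calls were 0, where 31.7% of tested genes were lower, and also 0 at an unadjusted p below 0.05. The list's median log2 fold change was 0.70. Klrk1, the gene of the activating receptor NKG2D, rose from 1.80 ± 0.909 to 14.0 ± 2.15 FPKM (log2 fold change 2.47, limma adjusted p = 0.00162). Pilrb1, a paired immunoglobulin-like receptor gene, rose from 8.15 ± 3.98 to 35.2 ± 3.20 FPKM (2.10, adjusted p = 0.00438). Trem3, a relative of Trem2, rose from 7.79 ± 1.90 to 20.3 ± 4.58 FPKM (1.27, adjusted p = 0.00456). The other calls were Cd300lb (0.89), Cd300ld (0.70), Sirpb1b (0.60) and Sirpb1a (0.49). Whether Cd300ld or any other listed receptor pairs with TYROBP was not tested. Without Sg-C3 replicate 2, Cd300lb and Sirpb1a missed the threshold at adjusted p = 0.0532 and 0.0530. Trem1 and Clec5a were not called, at 0.27 and 0.12, and Siglech was below the filter. Klrk1 and Tyrobp are also expressed by natural killer cells. The 4 tested markers of those cells were under 1 FPKM in every Sg-Con library and passed the filter through Sg-C3 alone, so their calls are not counted here. The summed FPKM of the 8 natural killer markers was 0.74 to 1.74 in Sg-Con and 16.9 to 26.9 in Sg-C3. Their part in the values of Tyrobp and its receptors was not tested.

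Downstream of TREM2 and TYROBP the list had calls in both directions, in shares close to those of all genes. Of 12 tested signalling genes 2 were higher and 4 lower, where 12.7% of all tested genes were higher and 31.7% lower. The list's median was -0.10. Syk, the kinase recruited by TYROBP, rose from 100.2 ± 7.93 to 182 ± 6.70 FPKM (log2 fold change 0.85, limma adjusted p = 0.00162). Malt1, a protease of the CARD9-BCL10-MALT1 complex, rose from 71.2 ± 11.2 to 187 ± 18.5 FPKM (1.38, adjusted p = 0.00137). Its partner Card9 fell from 31.7 ± 4.35 to 15.6 ± 4.70 FPKM (-1.01, adjusted p = 0.00833). Adam10, a protease that sheds TREM2 from the surface, fell from 36.7 ± 2.42 to 20.2 ± 4.92 FPKM (-0.86, adjusted p = 0.00809). The kinase gene Btk and the lipid phosphatase gene Inpp5d were lower by log2 fold changes of -0.77 and -0.58. The call of Inpp5d was lost without replicate 1 or 2 of Sg-Con or replicate 1 or 2 of Sg-C3, at adjusted p of 0.0722, 0.0601, 0.0702 and 0.0808. Hcst, Plcg2, Vav1, Ptpn6, Bcl10 and Adam17 were not called.

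**Figure D2:**
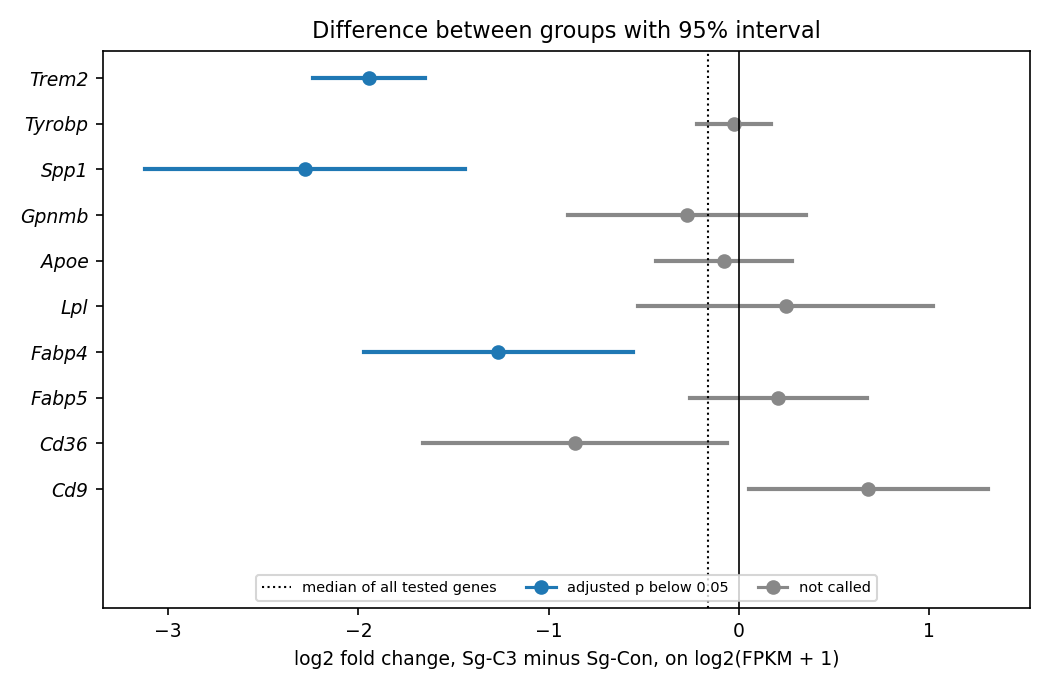
log2 fold change of each member (Sg-C3 minus Sg-Con on log2(FPKM + 1)) as a point with its unadjusted 95% interval as a line, and the median of all tested genes, -0.16, dotted. The intervals of Trem2, Spp1 and Fabp4 lie left of 0 with adjusted p below 0.05, and those of Cd36 and Cd9 miss 0 without a call.

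Spp1 encodes osteopontin, a secreted protein that binds integrins and CD44. Its level was 1189, 3510.2 and 1580.1 FPKM in the Sg-Con libraries and 414, 351 and 394 FPKM in the Sg-C3 libraries. All Sg-C3 libraries lay below all Sg-Con libraries, and Sg-Con replicate 2 stood well above the other two. The coefficient of variation was 59.4% in Sg-Con and 8.23% in Sg-C3. Means of 2093 ± 1243 and 386 ± 31.8 FPKM made the level 5.42-fold lower in Sg-C3, with a log2 fold change of -2.28 (SE 0.36, 95% interval -3.12 to -1.44, limma adjusted p = 0.00418). Without Sg-Con replicate 2 the log2 fold change was -1.83. Tumour epithelium can also express Spp1, and the level of carcinoma markers was lower beside it. Krt8, a keratin gene that passed the filter through Sg-Con alone, stood at 14.3 ± 6.74 and 0.323 ± 0.0551 FPKM. It was highest in Sg-Con replicate 2 at 21.9 FPKM, as Spp1 was, and so were Krt18, Cdh1 and Cldn4. By contrast Epcam, Krt19, Cldn7 and Elf3 were lowest in replicate 2 among the Sg-Con libraries, with Epcam at 1.14, 0.37 and 0.51 FPKM. The summed FPKM of the 8 measured carcinoma markers was 16.8 to 30.0 in Sg-Con and 2.51 to 3.21 in Sg-C3, with Epcam at means of 0.673 and 0.337. Their part in the fall of Spp1 was not tested.

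The osteopontin receptor genes did not share 1 direction. Of 8 tested, 3 were higher, where 12.7% of all tested genes were, and 2 were lower, where 31.7% were. The median log2 fold change was 0.10. Among the 3, Itgb3 passed the filter through Sg-C3 alone, so its call is no evidence of a rise. Itga9 rose from 29.3 ± 7.25 to 62.0 ± 4.52 FPKM (log2 fold change 1.08, limma adjusted p = 0.00412), and Itga4 rose from 14.5 ± 2.87 to 30.6 ± 1.05 FPKM (1.05, adjusted p = 0.0027). Both are α integrin chains that bind osteopontin. Itgb3 stood at 0.18, 0.40 and 0.85 FPKM in Sg-Con and 1.08, 1.16 and 1.08 FPKM in Sg-C3. Its log2 fold change of 0.54 lost the call without Sg-Con replicate 1 or 2 (adjusted p = 0.105 and 0.0997) and at a pseudocount of 0.1 (0.0582), and it could not be tested without any of the Sg-C3 libraries. Itgb5 was lower by -0.88, a call lost without Sg-C3 replicate 1 or 2 at adjusted p of 0.0512 and 0.0550, so that 1 lower call remained. Itgb1, the common β chain, was lower by -0.47. Cd44, Itgav and Itga5 were not called.

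Gpnmb encodes a transmembrane glycoprotein of lysosome-rich macrophages. It was low, at 9.54, 6.83 and 11.3 FPKM in Sg-Con and 8.92, 4.65 and 9.28 FPKM in Sg-C3. The groups overlapped, and means of 9.23 ± 2.26 and 7.62 ± 2.58 FPKM differed by less than the libraries within a group did (log2 fold change -0.27, 95% interval -0.90 to 0.35, limma adjusted p = 0.426). Of 4 genes of the MITF/TFE factors, which drive lysosomal genes including Gpnmb, 0 passed limma's test and 0 had an unadjusted p below 0.05. Mitf stood at 11.8 and 9.80, Tfe3 at 35.9 and 31.4, Tfeb at 9.09 and 6.69 and Tfec at 22.1 and 16.2 mean FPKM in Sg-Con and Sg-C3. All 4 means were lower in Sg-C3, and 1 of these genes was called lower without Sg-C3 replicate 2.

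Apoe encodes apolipoprotein E, which carries cholesterol out of macrophages and is a ligand of TREM2. By mean FPKM it ranked 2 among all tested genes. It stood at 6354, 5729 and 5214 FPKM in Sg-Con and at 5562, 4505 and 6416 FPKM in Sg-C3. The highest and the lowest library were both from Sg-C3 tumours. Means of 5765 ± 571 and 5494 ± 957 FPKM gave a log2 fold change of -0.08 (SE 0.15, 95% interval -0.44 to 0.28, limma adjusted p = 0.688), whose sign turned to 0.11 under median-ratio scaling and to 0.14 under scaling by macrophage genes. Relative to Apoe, Spp1 ran at 18.7%, 61.3% and 30.3% in the Sg-Con libraries and at 7.44%, 7.80% and 6.13% in the Sg-C3 libraries, a ratio that did not overlap and was not tested.

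Lpl encodes lipoprotein lipase, which frees fatty acids from lipoproteins. At 8.80, 2.74 and 5.30 FPKM in Sg-Con and 5.31, 5.79 and 7.96 FPKM in Sg-C3 it had no clear order by group. Sg-Con held both the highest and the lowest value. Means were 5.61 ± 3.04 and 6.35 ± 1.41 FPKM (log2 fold change 0.24, 95% interval -0.53 to 1.02, limma adjusted p = 0.568), and the interval leaves room for a change of up to 1.02 on the log2 scale.

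Among the other genes of lipoprotein and cholesterol handling, calls with the deposited scaling were in the lower direction. Of 16 tested, 7 were lower and 0 higher with limma, where 31.7% of all tested genes were lower and 12.7% higher. At an unadjusted p below 0.05 the higher count was 1. The median log2 fold change was -0.33, which a single gene of the list can move. Lrp1, an endocytic receptor for APOE-bearing lipoproteins, fell from 238 ± 39.1 to 100.2 ± 16.3 FPKM (log2 fold change -1.24, limma adjusted p = 0.00223). Msr1, the scavenger receptor that takes up modified LDL, fell from 480.4 ± 52.9 to 238 ± 32.1 FPKM (-1.01, adjusted p = 0.00257). Npc1, which exports cholesterol from lysosomes, fell from 38.5 ± 1.52 to 21.8 ± 1.50 FPKM (-0.80, adjusted p = 0.00189). Pltp, the phospholipid transfer protein gene, was lower by -0.82. Soat1, which esterifies cholesterol, was lower by -0.74 with adjusted p = 0.0136, and adjusted p = 0.0536 without Sg-C3 replicate 2. Rxra and Nceh1 were lower by -0.59 and -0.54. The call of Rxra was lost without Sg-C3 replicate 1 or 2 (adjusted p = 0.0664 and 0.0669). The exporter genes Abca1 and Abcg1, the LXR gene Nr1h3 and Lipa were not called. Without Sg-Con replicate 1, 2 genes of the list were called higher. Quantile normalization, median-ratio scaling, scaling by macrophage genes and a threshold of 0.1 each gave 1 higher call. The lower calls were 5 under median-ratio scaling and 5 under scaling by macrophage genes.

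Fabp4 and Fabp5 encode related fatty acid-binding proteins of the cytosol. Fabp4 was at 14.3, 6.91 and 5.44 FPKM in Sg-Con and at 3.04, 2.38 and 3.11 FPKM in Sg-C3. No Sg-C3 library reached the lowest Sg-Con library, and Sg-Con replicate 1 was the highest. Means of 8.88 ± 4.74 and 2.84 ± 0.403 FPKM made Fabp4 3.12-fold lower in Sg-C3 (log2 fold change -1.26, SE 0.30, 95% interval -1.97 to -0.56, limma adjusted p = 0.0145). Without Sg-C3 replicate 2 the adjusted p was 0.0556 at a log2 fold change of -1.18, and without Sg-Con replicate 1 the log2 fold change was -0.90. At the estimated depth and the length of its annotated transcript, 89 to 237 reads stood behind it in Sg-Con and 39 to 50 in Sg-C3.

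Fabp5 was at 134, 78.6 and 89.7 FPKM in Sg-Con and at 129.8, 103 and 109 FPKM in Sg-C3. The groups overlapped, with Sg-Con replicate 1 the highest as it was for Fabp4. Means were 100.7 ± 29.2 and 114 ± 14.0 FPKM (log2 fold change 0.21, 95% interval -0.26 to 0.67, limma adjusted p = 0.421). Without Sg-Con replicate 1 it was called higher (log2 fold change 0.43, adjusted p = 0.0483). RefSeq also holds Fabp5l2, a related gene that could share reads with Fabp5. The FPKM of Fabp4 was 10.7%, 8.79% and 6.06% of that of Fabp5 in Sg-Con and 2.34%, 2.31% and 2.86% in Sg-C3. The ratio of the binding proteins did not overlap between groups and was not tested.

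**Figure D3:**
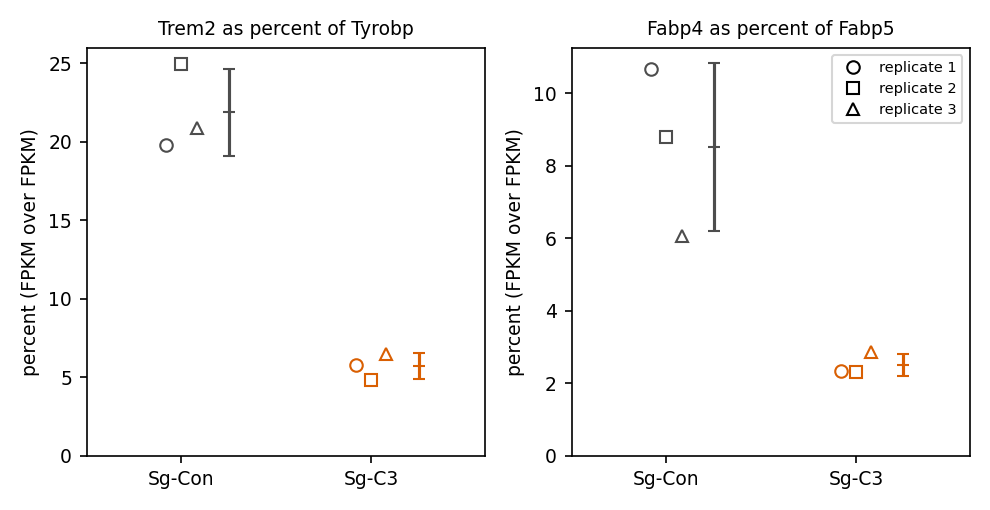
Ratio of the FPKM of paired members in each library, in percent, for Trem2 over Tyrobp and for Fabp4 over Fabp5. Symbols are the 3 libraries of a group and bars the mean ± SD, and every Sg-C3 library lies below every Sg-Con library in both panels.

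Cd36 encodes a scavenger receptor that takes up long-chain fatty acids and oxidised LDL. It was at 6.68, 2.69 and 7.14 FPKM in Sg-Con and at 1.41, 3.17 and 2.82 FPKM in Sg-C3. Sg-Con replicate 2 lay within the range of the Sg-C3 libraries, so the groups overlapped. Means of 5.50 ± 2.45 and 2.47 ± 0.932 FPKM gave a log2 fold change of -0.86 (SE 0.34, 95% interval -1.66 to -0.06, limma adjusted p = 0.0743). Without Sg-Con replicate 2 the value was -1.23 with adjusted p = 0.0165.

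Fat cells express Fabp4, Cd36 and Lpl strongly, capillary endothelium expresses Fabp4 and Cd36, and platelets carry Cd36 and Cd9. Of the adipocyte markers, 4 were measured and 0 reached the filter, with a summed FPKM of 1.05 to 2.56 in Sg-Con and 0.29 to 0.92 in Sg-C3, and with Adipoq at means of 0.203 and 0.0267. Of 10 measured endothelial markers, 6 were under 1 FPKM in all libraries and 3 were tested. Pecam1, which leukocytes also express, rose from 8.99 ± 4.06 to 61.2 ± 11.7 FPKM. The summed FPKM was 15.0 to 19.9 in Sg-Con and 62.1 to 81.0 in Sg-C3 with Pecam1 and 7.33 to 10.4 and 6.31 to 9.03 without it, and 7 of the 10 markers had the lower mean in Sg-C3. Of 5 measured platelet markers only Ppbp was tested, and it fell from 9.23 ± 2.22 to 0.93 ± 0.562 FPKM. The sum was 8.84 to 13.5 in Sg-Con and 2.83 to 3.88 in Sg-C3, a fall that came from Ppbp alone. Means of the others were higher in Sg-C3: Itga2b at 0.683 and 1.31, Gp9 at 0.157 and 0.277, Gp1bb at 0.133 and 0.223. Gp1ba was at 0.413 and 0.483. The part of these cells in the values of Fabp4, Cd36, Lpl and Cd9 was not tested.

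The other genes of fatty acid uptake and storage had calls in both directions. Of 19 tested, 6 were higher, where 12.7% of all tested genes were, and 5 were lower, where 31.7% were. The list's median log2 fold change was 0.10. Dgat1 and Dgat2, which complete triglyceride synthesis, rose together, the former from 14.6 ± 3.64 to 46.3 ± 2.52 FPKM and the latter from 4.12 ± 0.336 to 9.13 ± 1.27 FPKM (log2 fold changes 1.62 and 0.98, limma adjusted p = 0.0015 and 0.00241). Acsl1, which activates fatty acids, rose from 11.7 ± 1.97 to 32.2 ± 9.86 FPKM (1.35, adjusted p = 0.00614). Pparg, the nuclear receptor gene known to induce Fabp4, Cd36 and Lpl, rose from 2.99 ± 1.76 to 9.16 ± 2.03 FPKM (1.45, adjusted p = 0.0179). Without Sg-C3 replicate 1 Pparg had an adjusted p of 0.0540. Lipe and Ppard were higher by 0.56 and 0.43, and the call of Ppard was lost without replicate 1 or 2 of Sg-Con or replicate 1 or 2 of Sg-C3 (adjusted p of 0.0637, 0.0602, 0.0681 and 0.0757).

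In the lower direction, Slc27a1, a fatty acid transporter gene, fell from 69.3 ± 9.30 to 25.8 ± 4.55 FPKM (log2 fold change -1.40, limma adjusted p = 0.00189). The lipid droplet coat gene Plin3 fell from 30.5 ± 2.42 to 15.6 ± 1.87 FPKM (-0.93, adjusted p = 0.00226). Cpt1a, which admits fatty acids to mitochondria, Acsl3 and Lmf1, a maturation factor of lipoprotein lipase, were lower by -0.88, -0.87 and -0.48. The call of Lmf1 was lost without replicate 1 or 2 of Sg-Con or replicate 1 or 2 of Sg-C3 (adjusted p of 0.0772, 0.0685, 0.0687 and 0.0850). Plin2, the main droplet coat gene of macrophages, did not pass at 357 ± 160 and 183 ± 72.8 FPKM (adjusted p = 0.0904). Slc27a1, Plin3 and Cpt1a thus had calls in the same direction as Fabp4, and Dgat1, Dgat2 and Acsl1 had calls in the opposite one.

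Cd9 encodes a tetraspanin, a membrane organiser that also marks exosomes. It was at 52.3, 64.1 and 85.5 FPKM in Sg-Con and at 146, 110.5 and 74.0 FPKM in Sg-C3. It is the member with the highest log2 fold change, yet Sg-C3 replicate 3 lay below Sg-Con replicate 3. Means of 67.3 ± 16.9 and 110.2 ± 36.0 FPKM gave a log2 fold change of 0.68 (SE 0.27, 95% interval 0.05 to 1.31, limma adjusted p = 0.0743). Without Sg-C3 replicate 3 it was 0.94 with adjusted p = 0.0178. Leaving out Sg-Con replicate 3 gave 0.86 with adjusted p = 0.0472. RefSeq places 2 long non-coding RNA genes over Cd9, and the sources used here do not say whether reads were counted by strand. Relative to Trem2, Cd9 stood at 32.3%, 34.4% and 54.8% in Sg-Con and at 328%, 302% and 154% in Sg-C3. Trem2 exceeded Cd9 in every Sg-Con library and Cd9 exceeded Trem2 in every Sg-C3 library.

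Other tetraspanin genes were called in both directions. Of 11 tested, 2 were higher and 6 lower, a split near that of all calls, of which 71.5% were lower, with a median log2 fold change of -0.35. Tspan13 rose from 14.3 ± 6.89 to 91.8 ± 5.36 FPKM (log2 fold change 2.71, limma adjusted p = 0.00203), and Cd82 rose from 25.3 ± 1.73 to 41.1 ± 6.26 FPKM (0.67, adjusted p = 0.00749). Cd37, a tetraspanin of leukocytes, fell from 58.7 ± 18.1 to 18.3 ± 6.05 FPKM (-1.63, adjusted p = 0.00545). Cd151, a partner of laminin-binding integrins, fell from 17.3 ± 4.08 to 6.09 ± 1.58 FPKM (-1.37, adjusted p = 0.00419). Tspan3, Tspan14, Tspan4 and Tspan31 were lower by -0.89, -0.80, -0.65 and -0.35. The call of Tspan31 was lost when Sg-Con replicate 1 or either of Sg-C3 replicates 1 and 2 was left out (adjusted p = 0.0545, 0.0549 and 0.0581). The exosome tetraspanins Cd63 and Cd81 were not called.

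**Figure D4:**
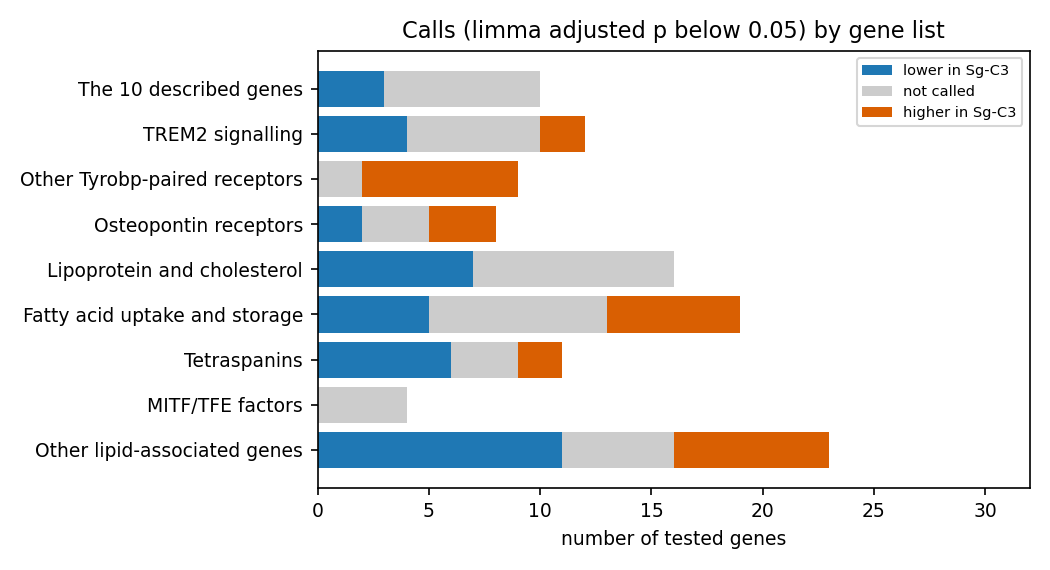
Number of tested genes of each context list that were higher, lower or not called in Sg-C3 with limma at an adjusted p below 0.05. Receptors listed as partners of TYROBP hold 7 higher calls and 0 lower, and lipoprotein and cholesterol genes hold 0 higher and 7 lower. Of all tested genes 12.7% were higher and 31.7% lower.

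Outside the 10 members, 23 other genes reported for lipid-associated or disease-associated macrophages and microglia were tested. Of these, 7 were higher, where 12.7% of all tested genes were, and 11 were lower, where 31.7% were. Their median log2 fold change was -0.58. The lower ones include lysosomal and secreted products. Lyz2, lysozyme, fell from 7712 ± 915 to 3379 ± 579 FPKM (log2 fold change -1.20, limma adjusted p = 0.00257). Ctsd, a lysosomal protease gene, fell from 1085 ± 194 to 387 ± 44.4 FPKM (-1.47, adjusted p = 0.00162). Lgals1, a galectin gene, fell from 1029 ± 74.4 to 438 ± 23.0 FPKM (-1.23, adjusted p = 8.81e-04). The actin-capping gene Capg fell from 385 ± 58.4 to 114 ± 4.96 FPKM (-1.74, adjusted p = 0.00078). The chemokine gene Ccl6 fell from 1065 ± 351 to 226 ± 46.2 FPKM (-2.21, adjusted p = 0.00185). The remaining lower calls were Anxa1 (-1.11), Grn (-0.88), Cd68 (-0.85), Atp6v0d2 (-0.83), Ctsb (-0.58) and Lgals3 (-0.43). Those of Atp6v0d2 and Lgals3 were each lost without at least 3 of the 6 libraries in turn.

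The higher genes of that list include cell-surface receptors. Itgax, the gene of CD11c, rose from 27.9 ± 16.9 to 197 ± 18.9 FPKM (log2 fold change 3.03, limma adjusted p = 0.0052). Clec7a, which encodes the β-glucan receptor dectin-1, rose from 44.1 ± 15.3 to 185 ± 38.5 FPKM (2.08, adjusted p = 0.00257). Itgax is also expressed by dendritic cells, and of 3 tested dendritic cell markers 2 were higher. The sum over 8 measured was 11.5 to 15.5 FPKM in Sg-Con and 35.3 to 63.5 FPKM in Sg-C3. Ccr7 had the largest rise in FPKM among them, at means of 2.43 and 32.8. Xcr1 was also called higher (log2 fold change 1.16), and Clec9a, below the filter, had a higher mean in Sg-C3. Fscn1 was not called, at means of 7.59 and 7.62 FPKM. Under 1 FPKM in every library were 4 of the 8, Flt3 and Zbtb46 among them. The part of dendritic cells in the rise of Itgax was not tested. The other 5 calls, Axl (1.25), Csf1 (0.94), Cst7 (0.67), Fth1 (0.54) and Ctsz (0.36), were each lost when any of at least 3 of the 6 libraries was left out. The list had 2 higher calls without Sg-C3 replicate 1 or replicate 2 and 3 without Sg-Con replicate 2.

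**Figure D5:**
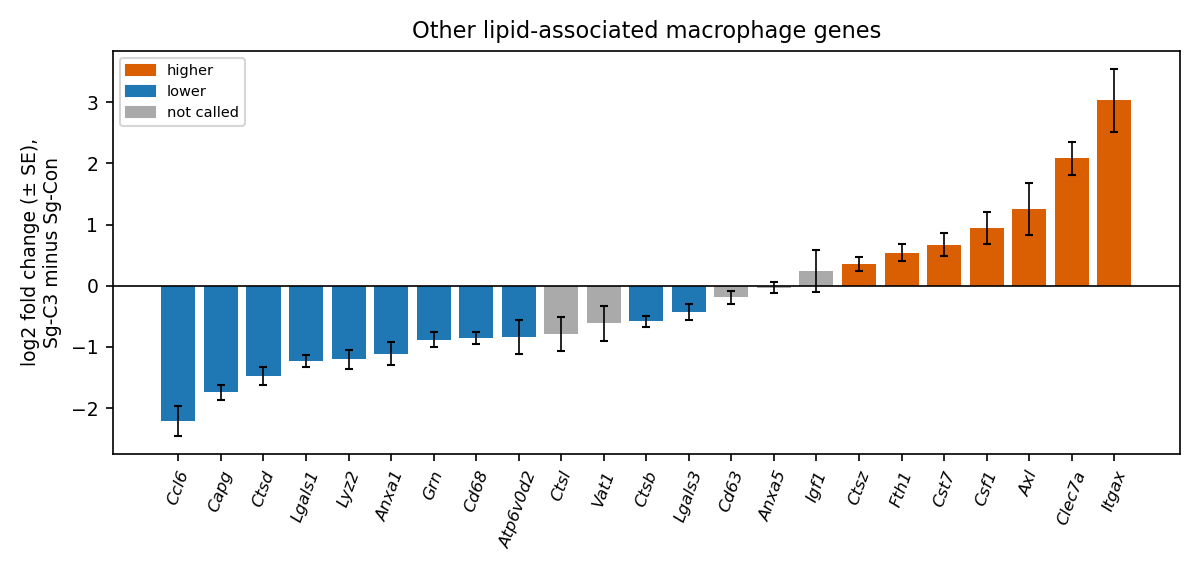
log2 fold change (Sg-C3 minus Sg-Con on log2(FPKM + 1)) of the 23 other lipid-associated genes, as bars with limma's SE, coloured by call. Itgax at 3.03 and Ccl6 at -2.21 are the ends of the range.

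Among 7649 genes with a mean of at least 5 FPKM, the genes whose pattern over the 6 libraries was nearest to that of Trem2 were Serpinb6a, Capg, P2ry12, Tmem37 and Adam15. Likeness is the mean absolute difference of log2(FPKM + 1) after each gene is centred, and it ran from 0.0825 for Serpinb6a to 0.117 for Adam15. Serpinb6a stood at 126 ± 5.70 and 31.9 ± 6.77 FPKM, and P2ry12, a purinergic receptor gene, at 15.4 ± 1.76 and 3.47 ± 1.29 FPKM. Nearest to Spp1 were Ccl6, Nt5e, Gda, Pls3 and Sgms1, at 0.191 to 0.244. All 5 were highest in Sg-Con replicate 2, as Spp1 was. Nt5e, the gene of the ecto-enzyme CD73, was at 8.83, 18.0 and 8.24 FPKM in Sg-Con and 0.87, 0.86 and 1.10 FPKM in Sg-C3. The genes were picked by likeness, so their folds are no separate evidence.

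As for the libraries themselves, the FPKM values imply 17.6 to 19.3 megareads mapped in each. Libraries of a group correlated at 0.986 to 0.990 over all genes, against 0.945 to 0.974 between groups. All 10 macrophage markers were measured and tested, and Adgre1 (F4/80) stood at a mean of 173 FPKM in Sg-Con and 172 FPKM in Sg-C3. Of the 10, 3 were lower (Cd68, Itgam and Mertk) and 0 higher with limma, where 31.7% of all tested genes were lower and 12.7% higher. At an unadjusted p below 0.05, 1 was higher. Their median log2 fold change was -0.19, beside -0.16 for all tested genes. Their summed FPKM was 7263 to 9378 in Sg-Con and 6184 to 7694 in Sg-C3. Summed markers of other cells were 137 to 216 and 375 to 1320 FPKM for neutrophils, 67.5 to 93.3 and 143 to 208 for fibroblasts, 2.20 to 6.02 and 15.2 to 22.3 for T cells and 24.9 to 38.2 and 20.7 to 23.9 for B cells. Of 8 tested fibroblast markers 4 were higher and 2, Col1a2 and Thy1, were lower. Dcn had the largest rise in FPKM among them, at means of 21.9 in Sg-Con and 114 in Sg-C3. Col1a1 was not called, at means of 4.97 and 5.69. The part of neutrophils, fibroblasts, T cells and B cells in the members' values was not tested. The calls of 8 list genes (Inpp5d, Itgb1, Rxra, Nceh1, Lmf1, Tspan31, Lgals3 and Atp6v0d2) were lost under both median-ratio scaling and scaling by macrophage genes, and that of Ctsb under the latter.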

How the data were processed

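RNA of sorted tumour macrophages was sequenced in 6 libraries, 3 per group, grouped by the sample labels, with replicates numbered in accession order and not paired. The authors deposited FPKM values per gene. Trizol served for RNA extraction per the labels' protocols, which list a TruSeq kit and an MGIEasy kit without saying which was used. Bowtie 0.12.2 and mm8 are named in the submitters' processing notes, and the sources used here do not say which tool gave the FPKM. Of the gene symbols, 23 turned into dates were restored by gene ID from RefSeq, which held 15440 of the IDs.

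The 11198 genes that reached 1 FPKM in 3 or more libraries entered a linear model of log2(FPKM + 1) in limma 3.58.1 (R 4.3.3, eBayes with a trend), with Benjamini-Hochberg adjustment over all of them and a threshold of 0.05. The pseudocount of 1 understates the change of low genes. Intervals are unadjusted. The script was tested on simulated data. Depth is an estimate from 431 short RNA genes, where 87.8% to 92.6% of values of up to 8 reads were whole within 0.1 read, with 36 bases taken from each length. The members and the gene lists were chosen with earlier results of these data known, and 1 gene each of the lipoprotein and cholesterol list and of the other lipid-associated list is not reported here. Both were left out of the counts and medians of those 2 lists after the values were seen, but not for their values. All members are described, with every called gene and up to 4 genes of smallest p of each list, other uncalled genes named only as such, and the 5 genes nearest to Trem2 and to Spp1. Uncalled genes named beyond that rule (Siglech, the cell type markers at low levels and uncalled list genes) were chosen after their values were seen. Promoter sequences are RefSeq's (GRCm38.p6), with windows of 250 bases before to 50 after a start for 6 of 10 members. The 16 alternatives were another pseudocount, 2 filters, 3 scalings, array weights, a robust prior, the style of sample titles as a covariate, a threshold of 0.1 and each library left out. Those on list counts and list genes were chosen after seeing the data.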

Additional observations from a re-analysis of the deposited data

How the results depend on the processing

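Of 16 alternatives, Trem2 (log2 fold change -2.03 to -1.72) and Spp1 (-2.61 to -1.83) were called lower in each, and Fabp4 (-1.52 to -0.90) in 15, the exception being without Sg-C3 replicate 2. Cd9 was the 1 member called higher under median-ratio scaling, with array weights and at a threshold of 0.1. Leaving out each library in turn gave 0 to 1 members called higher and 2 to 4 called lower, where the 1 called higher was Cd9 or, without Sg-Con replicate 1, Fabp5, and the fourth called lower was Cd36. Of the 7 uncalled members, Tyrobp, Apoe, Gpnmb and Lpl changed sign in at least 1 alternative, and Fabp5, Cd36 and Cd9 in none. Median-ratio scaling and scaling by macrophage genes gave log2 fold changes of 0.17 and 0.20 for Tyrobp and of 0.11 and 0.14 for Apoe. Leaving out a library gave -0.051 to 0.016 for Tyrobp, -0.20 to 0.056 for Apoe, -0.45 to 0.0061 for Gpnmb and -0.11 to 0.58 for Lpl. Cd36 could not be tested at a mean of at least 5 FPKM.

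Over all genes, median-ratio scaling gave 2198 higher and 1971 lower calls and scaling by macrophage genes 1576 lower, against 1418 and 3554. Leaving out a library gave 810 to 1423 higher and 1970 to 3639 lower. Lower calls were 71.5% of all with the deposited scaling, 56.9% after quantile normalization, 47.3% after median-ratio scaling and 44.6% after scaling by macrophage genes, and the median log2 fold change moved from -0.16 to -0.06, 0.00 and 0.03. Of 70 called genes of the context lists or nearest to Trem2 and Spp1, 49 were called in every alternative that tested them and 21 lost the call in at least 1, none with a change of sign. The cause of these changes was not tested. FPKM carry no counts, and the low FPKM of Fabp4 in Sg-C3 rest on an estimated 39 to 50 reads.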

Other observations

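Osteoclasts share Spp1, Gpnmb and the TREM2 and TYROBP receptor complex with macrophages, and 6 genes of the osteoclast program were tested. Ocstamp and Acp5 were higher in Sg-C3. Itgb3 and Dcstamp met the filter through the Sg-C3 libraries, so their higher calls are not counted here. Ctsk and Atp6v0d2 were lower, as Spp1 was, but Atp6v0d2 lost its call in 11 of 15 alternatives. Ocstamp, which serves cell fusion, rose from 6.34 ± 5.05 to 42.9 ± 3.01 FPKM (log2 fold change 2.79, limma adjusted p = 0.00352). Dcstamp, which also serves cell fusion, stood at 0.98, 0.52 and 1.69 FPKM in Sg-Con and at 5.07, 11.1 and 6.55 FPKM in Sg-C3. Acp5, the gene of tartrate-resistant acid phosphatase, rose from 232 ± 87.5 to 523 ± 70.7 FPKM (1.22, adjusted p = 0.00828). Ctsk, the gene of cathepsin K, fell from 28.2 ± 8.70 to 6.83 ± 4.42 FPKM (-2.08, adjusted p = 0.0175). The summed FPKM of the list was 223 to 368 in Sg-Con and 503 to 635 in Sg-C3.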
